A study of Mus musculus with 23 samples.

Results

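The genes described here are interferon-induced genes, a list of 43 genes known to respond to type I or type II interferon, read in sorted mouse CD4+ T cells. A gene was taken as measured when a probe set of the array carried its symbol alone, and where several did, the brightest by its average log2 level was used. By this rule 41 of the 43 genes were measured, among 18193 genes measured in all, and all 41 passed the filter on low values along with 12516 genes. Isg15 has only a probe set shared with another gene and was not used, and no probe set of the annotation carried the name Ifi44. For 17 of the 41 genes several probe sets exist.

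Type I interferons bind the receptor made of Ifnar1 and Ifnar2 and act through a complex that holds Stat2 and Irf9 on the interferon-stimulated response element (ISRE). Interferon-gamma binds Ifngr1 and Ifngr2 and acts on the gamma-activated site (GAS), and through Irf1 on further genes. The products block viral replication (Ifit, Oas and Mx genes), attack vacuoles of pathogens (guanylate-binding proteins and immunity-related GTPases), cut and load antigen (Psmb8, Psmb9, Tap1), recruit T cells (Cxcl10) or restrain the signal (Usp18). The level of these genes is widely used as a readout of interferon signalling in T cells.

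RNA was measured on 23 arrays in 9 groups, all from mice aged 6 to 10 weeks and labelled male. From C57BL/6-Foxp3/GFP mice came Foxp3-GFP+ cells (LP Treg, 2 arrays) and Foxp3-GFP- cells (LP Tconv, 2 arrays) of the small intestinal lamina propria. The same strain gave Foxp3-GFP+ cells of peripheral lymph nodes (LN), split by the surface proteins CD103 and Klrg1 into CD103-Klrg1-, CD103+Klrg1- and CD103+Klrg1+ groups of 2 arrays each. In these 5 groups each array pooled 4 to 6 mice. In the homeostatic groups, BDC2.5/NOD/Foxp3-GFP- CD4+ cells had been moved into NOD RAG-/- hosts, in which B and T lymphocytes do not develop while NK and myeloid cells do. Their Foxp3-GFP+ (converted) and Foxp3-GFP- progeny were sorted from spleen and lymph nodes 14 days later, with 3 arrays a group and 2 to 3 mice an array. In the DEC groups, CD4+CD25- cells from mice of the type HA6.5/Thy1.2/RAG-/-/Balb/c had been moved into Balb/c mice given DEC-HAPeptide once, at 50 ng a mouse. They were sorted after 3 weeks by CD25 and not by Foxp3, giving 3 CD25+ and 4 CD25- arrays with 5 to 10 mice an array. Every group was sorted as CD3+ CD4+ and negative for B220, CD8a and CD11b/c. Strain, host, transgenic receptor and system change together between the C57BL/6, NOD and Balb/c arrays, so their parts in a difference between systems cannot be told apart. Fewer cells of a type and less RNA per cell cannot be told apart either in such bulk RNA.

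Foxp3 was high on the arrays sorted for it, with group means of 10.35 to 11.21 in log2 intensity, and low on those sorted against it, at 4.76 in homeostatic Foxp3- and 4.65 in LP Tconv cells. It averaged 10.47 in DEC CD25+ and 7.97 in DEC CD25- cells. Array medians ran from 63.7 to 81.1 intensity units, and the lowest belonged to DEC CD25- replicates 3 and 4. On replicate 3 the Gapdh control probe sets for the 3′ and 5′ end of the RNA differed by 6.59 on the log2 scale, against 1.63 to 3.92 on the other arrays. The transcript Xist is expressed from the inactive X chromosome of female cells. It read 11.85 to 13.25 on the 7 DEC arrays and 6.47 to 7.67 on the other 16. This goes against the label male for the DEC groups. By this reading sex changes with the DEC system too, so its part in a difference between DEC and other arrays cannot be told apart. Markers of myeloid and dendritic cells, a list of 14 genes, averaged 7.44 to 8.88 on the homeostatic arrays, 7.04 to 7.84 on DEC CD25+, 6.45 to 7.12 on DEC CD25- and 6.40 to 6.94 on the C57BL/6 arrays. No gene of the list is at 0 in these background-adjusted values, and 13 of the 14 had a group mean above the filter in both homeostatic groups.

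Promoters of the genes on which the results turn are shown first, to let a reader see which of them carry the response elements. Sequences are from RefSeq on the GRCm38.p6 build, 31 of the 41 genes have an entry there, and each run gives the 250 bases before the start site, 5′ to 3′. Capitals mark matches to the ISRE letters, GAAA followed by any 2 bases and GAAA again, or the same with TTTC in place of GAAA, which is the motif read on the other strand. Gbp3 has a pair of promoter entries, and the one with a match is shown.
Gbp2b, chr3:142594597-142594846, plus strand: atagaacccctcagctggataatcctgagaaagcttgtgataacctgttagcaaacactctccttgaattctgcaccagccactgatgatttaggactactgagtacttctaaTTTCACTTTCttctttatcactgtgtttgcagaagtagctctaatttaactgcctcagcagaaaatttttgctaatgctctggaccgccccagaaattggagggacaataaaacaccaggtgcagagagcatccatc
Gbp3, chr3:142559794-142560043, plus strand: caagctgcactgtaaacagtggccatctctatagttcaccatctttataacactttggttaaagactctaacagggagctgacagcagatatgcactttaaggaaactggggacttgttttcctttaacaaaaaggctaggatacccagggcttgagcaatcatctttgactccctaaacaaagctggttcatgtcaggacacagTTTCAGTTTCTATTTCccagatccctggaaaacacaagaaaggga
Ifit1, chr19:34640639-34640888, plus strand: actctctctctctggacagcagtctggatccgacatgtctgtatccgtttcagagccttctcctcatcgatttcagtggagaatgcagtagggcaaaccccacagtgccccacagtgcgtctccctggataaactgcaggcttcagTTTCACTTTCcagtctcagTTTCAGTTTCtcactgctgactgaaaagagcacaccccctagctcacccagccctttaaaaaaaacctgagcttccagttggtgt
Ifit3, chr19:34583279-34583528, plus strand: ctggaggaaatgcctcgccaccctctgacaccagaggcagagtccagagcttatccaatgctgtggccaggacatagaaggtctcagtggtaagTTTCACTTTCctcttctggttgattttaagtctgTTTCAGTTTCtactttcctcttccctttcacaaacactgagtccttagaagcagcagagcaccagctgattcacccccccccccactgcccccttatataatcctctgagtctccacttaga
Cxcl10, chr5:92348890-92349139, minus strand: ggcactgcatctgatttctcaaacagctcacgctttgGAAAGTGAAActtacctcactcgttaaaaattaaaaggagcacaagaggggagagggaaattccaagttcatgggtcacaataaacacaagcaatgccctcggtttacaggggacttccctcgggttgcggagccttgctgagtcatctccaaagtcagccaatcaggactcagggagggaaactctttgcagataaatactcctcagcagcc
Oasl2, chr5:114896684-114896933, plus strand: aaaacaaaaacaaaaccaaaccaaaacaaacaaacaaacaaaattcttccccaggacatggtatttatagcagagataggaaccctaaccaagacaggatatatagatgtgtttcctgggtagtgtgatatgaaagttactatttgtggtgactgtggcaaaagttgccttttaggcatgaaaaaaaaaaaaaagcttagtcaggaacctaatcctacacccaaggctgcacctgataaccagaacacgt

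Gbp2b and Gbp3, guanylate-binding proteins that differed most between gut Treg and Tconv cells, carry the element 137 bases, and 45 and 39 bases, before the start. Ifit1 and Ifit3, antiviral genes low on the DEC arrays, carry 2 matches each, at 104 and 85 and at 156 and 122 bases. Cxcl10 has a match at 213 bases. Oasl2 has none in this window, although it was among the genes that differed most, and no match says only that these letters are not in the window. Over the window from 250 bases before to 50 after the start, 16 of the 31 genes (51.6%) held an ISRE match, against 3.99% of the 27025 genes in the table. The GAS letters TTCNNNGAA, the same on both strands, were in 9 of the 31 (29.0%) against 9.55%. These matches are descriptions of sequence and not of binding.

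The mean over the 41 genes was lowest in the DEC groups and, by group, highest in LP Treg cells. The highest single array was LP Tconv replicate 2, at 9.84, against 9.28 on LP Tconv replicate 1 and 9.66 and 9.73 in LP Treg. It was 8.40 ± 0.28 in log2 intensity (SD, n = 4 arrays) in DEC CD25-, 8.81 ± 0.17 (SD, n = 3) in DEC CD25+, 9.32 ± 0.08 in homeostatic Foxp3- and 9.35 ± 0.11 in homeostatic Foxp3+ cells (SD, n = 3 each). In the C57BL/6 groups it ran from 9.47 ± 0.11 in LN CD103-Klrg1- through 9.49 ± 0.13 in CD103+Klrg1+, 9.56 ± 0.40 in LP Tconv and 9.59 ± 0.02 in CD103+Klrg1- to 9.69 ± 0.05 in LP Treg cells (SD, n = 2 each). Both homeostatic groups lay within each other's spread, and so did neighbours in the order among the C57BL/6 groups other than CD103+Klrg1- and its neighbours. CD103+Klrg1- lay within the wide spread of LP Tconv, but LP Tconv lay below the narrow spread of CD103+Klrg1-. CD103+Klrg1- and LP Treg were 0.10 apart. The mean over all tested genes was 7.91 in DEC CD25-, 8.13 in DEC CD25+ and 8.20 to 8.25 in the other groups, so the low DEC level of the 41 genes exceeded a shift shared with all genes. Without the dim DEC CD25- replicates 3 and 4 that group's mean for the 41 genes was 8.60.

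**Figure D1:**
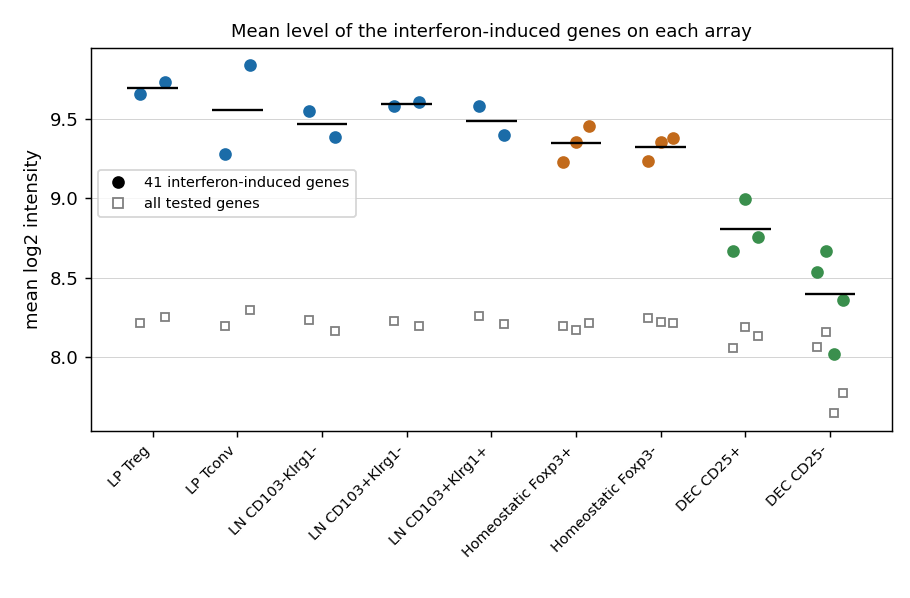
Mean log2 intensity of the 41 interferon-induced genes (filled points, one per array, coloured by strain: blue C57BL/6, orange NOD, green Balb/c) and of all tested genes (open squares) in the 9 groups, with the group mean as a bar. All 7 DEC arrays lie below the other 16 for the interferon-induced genes, and the DEC CD25- arrays also include the lowest means over all tested genes.

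The genes differed in how far they moved. The range of the 9 group means had a median of 1.68 on the log2 scale over the 41 genes and of 1.01 over all tested genes, and 41.5% of the 41 against 13.7% of all tested genes spanned more than 2. Ly6e, a surface protein of lymphocytes induced by type I interferon, spanned 6.11 and Usp18 4.06. Ifi35 spanned only 0.37, with group means from 11.13 to 11.49. The lowest group was DEC CD25- for 21 genes (51.2%, against 30.6% of all tested genes) and DEC CD25+ for 8 (19.5% against 7.08%). The highest group was LP Treg for 15 genes (36.6% against 11.9%). Group means of role classes did not move alike. The mean of the 14 antiviral effectors was 7.23 and 7.50 in DEC CD25- and CD25+ cells and 8.74 to 9.20 elsewhere, while that of the 6 interferon-inducible GTPases was lowest in homeostatic Foxp3- cells, at 9.40 ± 0.21 (SD, n = 3), and highest in LN CD103+Klrg1- cells, at 11.11 ± 0.20 (SD, n = 2).

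**Figure D2:**
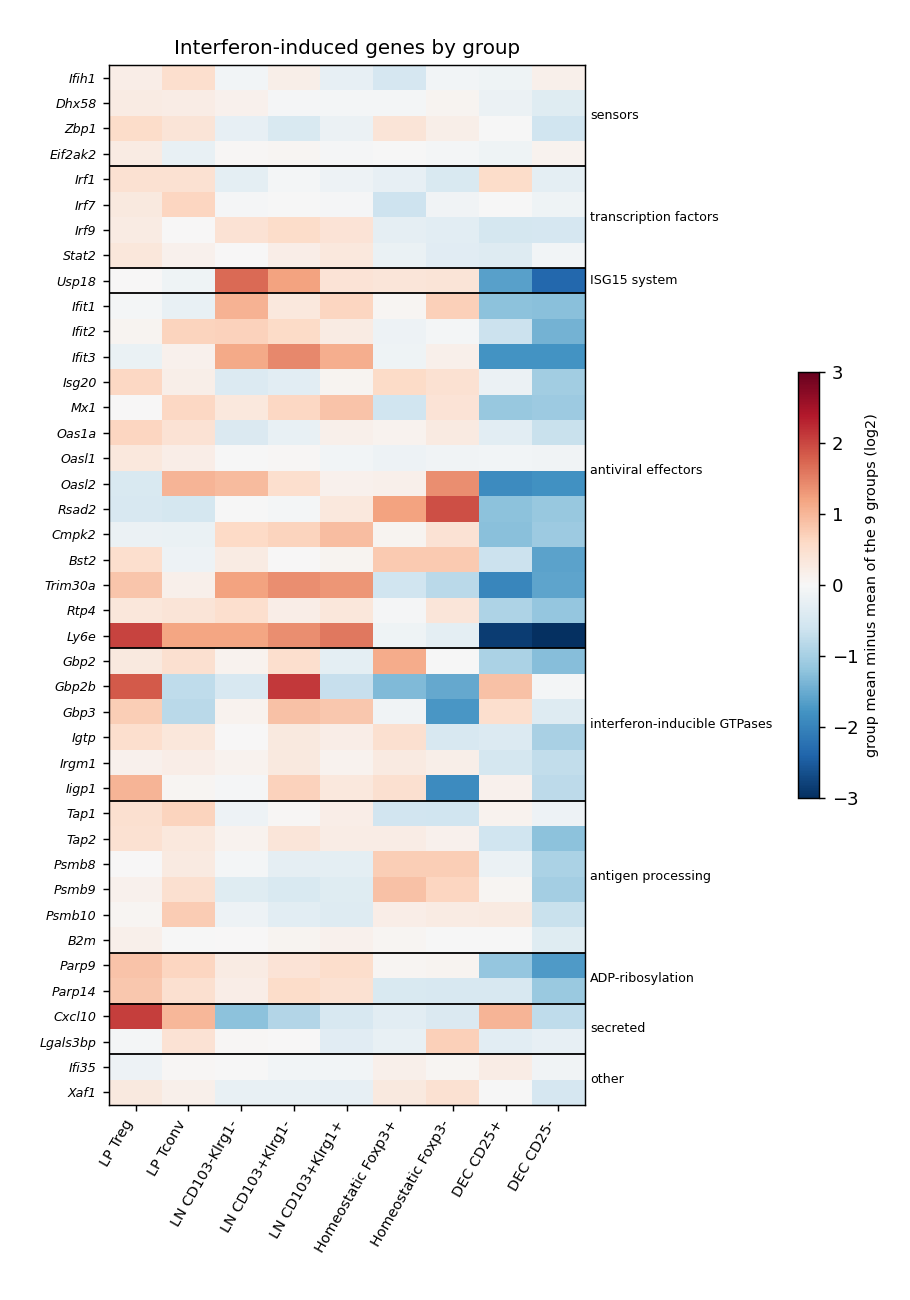
Group mean of each of the 41 genes minus the mean of its 9 groups, in log2, with genes in rows by role and groups in columns, and colours that stop at 3 in either direction. Red cells are above and blue cells below the gene's own mean: Usp18, the Ifit genes, Oasl2, Trim30a and Ly6e are low in both DEC columns, and Gbp2b is high in LP Treg and LN CD103+Klrg1-.

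In the gut, the comparison of Treg with Tconv cells asked how the program differs between Foxp3+ and Foxp3- cells of one site. Most of it did not differ beyond the threshold, and 3 of 41 genes passed: Gbp2b and Gbp3 were higher and Oasl2 was lower in LP Treg cells (limma, Benjamini-Hochberg adjusted p under 0.05 over the 12516 tested genes). All genes passed at 2.7% in this comparison. Gbp2b, a guanylate-binding protein induced mainly by interferon-gamma, read 10.68 and 9.94 on the LP Treg arrays and 7.88 and 7.50 on the LP Tconv arrays. Its groups do not overlap, and the difference was 2.62 ± 0.39 on the log2 scale (SE), or 6.14-fold, with a limma adjusted p of 0.000425. Gbp3 read 13.02 and 12.66 in LP Treg against 11.60 and 11.01 in LP Tconv, a difference of 1.53 ± 0.27 (SE; 2.89-fold) with a limma adjusted p of 0.00224. Oasl2, an oligoadenylate synthetase-like antiviral protein, read 5.58 and 6.08 in LP Treg and 7.16 and 7.49 in LP Tconv. The LP Treg mean of Oasl2 lies below the filter, so it was at least 2.81-fold lower there, with a log2 difference of -1.49 ± 0.26 (SE) and a limma adjusted p of 0.00186. Iigp1, an immunity-related GTPase, was next by p and did not pass, with 10.25 against 9.29, a difference of 0.97 ± 0.33 (SE) and an adjusted p of 0.193. Of the 6 GTPase genes 2 passed and 4 had positive differences, with a median of 0.56. The median difference was 0.13 over the 41 genes and -0.01 over all tested genes. Without LP Treg replicate 1, Gbp3 (1.35, adjusted p = 0.0563) and Oasl2 (-1.24, adjusted p = 0.0583) missed the threshold and 1 gene stayed called, and Gbp3 also missed it without LP Tconv replicate 2 (1.24, adjusted p = 0.0542). In a fit of these 4 arrays alone none of the 3 passed, with adjusted p-values of 0.122 for Gbp2b, 0.220 for Oasl2 and 0.233 for Gbp3.

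The RNA of interferon-gamma, Ifng, differed in the other direction from Gbp2b and Gbp3, and its part in their levels was not tested. Ifng read 13.55 and 12.88 on the LP Tconv arrays and 10.21 and 10.49 on the LP Treg arrays, -2.87 ± 0.41 on the log2 scale (SE, limma adjusted p = 0.000352), and it was the only one of 28 tested interferon signalling genes to pass here. The LP Tconv values are the highest of Ifng in the study, where lymph node group means were 8.11 to 9.23. Of 51 further interferon-induced genes, chosen with earlier results of these data known, 2 were higher and 1 lower in LP Treg cells. Samhd1, which degrades nucleotides that viruses need, was higher by 1.28 ± 0.28 (SE, limma adjusted p = 0.0138), and Gbp7, another guanylate-binding protein, by 1.44 ± 0.34 (SE, limma adjusted p = 0.0243). Ms4a4b, a membrane protein of T cells, differed by -0.93 ± 0.21 (SE, limma adjusted p = 0.0186).

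In the homeostatic groups 3 GTPase genes, Iigp1, Gbp3 and Gbp2, were higher on the Foxp3+ side, of which Gbp3 was also called in the gut. Of the 41 genes 3 were higher and 1 lower in Foxp3+ than in Foxp3- cells, where 1.76% of all genes passed. Iigp1 read 9.71, 9.61 and 9.85 on the Foxp3+ arrays and 6.99, 7.47 and 7.58 on the Foxp3- arrays. These groups are far apart, by 2.38 ± 0.27 on the log2 scale (SE; 5.20-fold, limma adjusted p = 3.76e-05). Gbp3 read 11.94, 12.05 and 12.04 against 10.13, 10.66 and 10.32, a difference of 1.64 ± 0.22 (SE; 3.11-fold, limma adjusted p = 0.00027). Gbp2 read 11.33, 11.96 and 11.77 against 10.18, 10.81 and 10.74, a difference of 1.11 ± 0.26 (SE, limma adjusted p = 0.0374). Its groups do not overlap, but it missed the threshold, at 0.91 to 1.22, without any one of Foxp3+ replicates 2 and 3 and Foxp3- replicates 1, 2 and 3. Oasl2 was lower, at 6.04, 6.81 and 6.48 against 7.45, 7.88 and 7.74, by -1.24 ± 0.21 (SE, limma adjusted p = 0.00227).

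Of the 6 GTPase genes tested, all 6 had positive differences in the homeostatic comparison and 3 passed, with a median of 1.04 against -0.03 over all tested genes. Among the 14 antiviral effectors 11 had negative differences, 1 of them called, with a median of -0.23. With the replicate number as a block, 7 of the 41 genes passed: beside the 4 named, Igtp, an immunity-related GTPase, was higher (0.97 ± 0.21, SE, limma adjusted p = 0.0293), and Lgals3bp, a secreted lectin-binding protein (-0.95 ± 0.18, SE, adjusted p = 0.0125) and Mx1, an antiviral dynamin-like GTPase (5.72 ± 0.21 against 6.72 ± 0.66, SD, n = 3 each; adjusted p = 0.048), were lower. Markers of CD8 T and NK cells averaged 8.58 to 8.77 on the Foxp3- and 7.35 to 8.47 on the Foxp3+ arrays, and their part in these differences was not tested. None of the 28 signalling genes passed in this comparison by limma, 3 of them at an unadjusted p under 0.05. Ifng averaged 9.99 ± 0.57 in Foxp3+ and 10.34 ± 0.57 in Foxp3- cells (SD, n = 3 each). Samhd1 was the only called gene of the 51 further ones, higher by 1.24 ± 0.23 (SE, limma adjusted p = 0.00488).

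In the DEC groups no gene of the 41 passed between CD25+ and CD25- cells by limma, where 0.495% of all genes did. At an unadjusted limma p under 0.05 there were 12 of the 41. The share of all genes at that looser threshold is not given, so this count is not read as a result about the 41. The 4 of smallest p were all higher on the CD25+ side. Gbp3 read 12.83, 12.51 and 12.47 on the CD25+ arrays and 12.12, 11.88, 11.76 and 11.15 on the CD25- arrays, a difference of 0.88 ± 0.20 (SE, adjusted p = 0.0652). Iigp1 differed by 0.91 ± 0.25 (SE, adjusted p = 0.134), Usp18 by 0.73 ± 0.22 (SE, adjusted p = 0.180) and Cxcl10 by 1.78 ± 0.54 (SE, adjusted p = 0.183). Their CD25+ and CD25- arrays overlapped for Usp18 and for no other of the 4 genes, since CD25- replicate 2 read 6.86 for Usp18 against 6.67 on CD25+ replicate 1. The median of all tested genes was itself 0.16 higher on the CD25+ side and -0.05 after quantile normalization, and that of the 41 genes was 0.35. With the replicate number as a block 2 genes passed by limma, Gbp3 (0.69 ± 0.12, SE, adjusted p = 0.0237) and Ly6e (1.85 ± 0.27, SE, adjusted p = 0.0115). These differences rest on the 3 same-number pairs, replicate 3 included, since CD25- replicate 4 has no CD25+ partner. Without DEC CD25- replicate 1 there were 3 calls, without CD25+ replicate 1 there was 1, and without CD25- replicate 3, the array with the high Gapdh ratio, there were 0. Markers of myeloid and dendritic cells averaged 7.04 to 7.84 on the CD25+ and 6.45 to 7.12 on the CD25- arrays, and their part in the Cxcl10 difference was not tested. None of the 28 signalling genes and none of the 51 further genes passed by limma in the DEC pair, with 2 and 19 at an unadjusted p under 0.05.

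**Figure D3:**
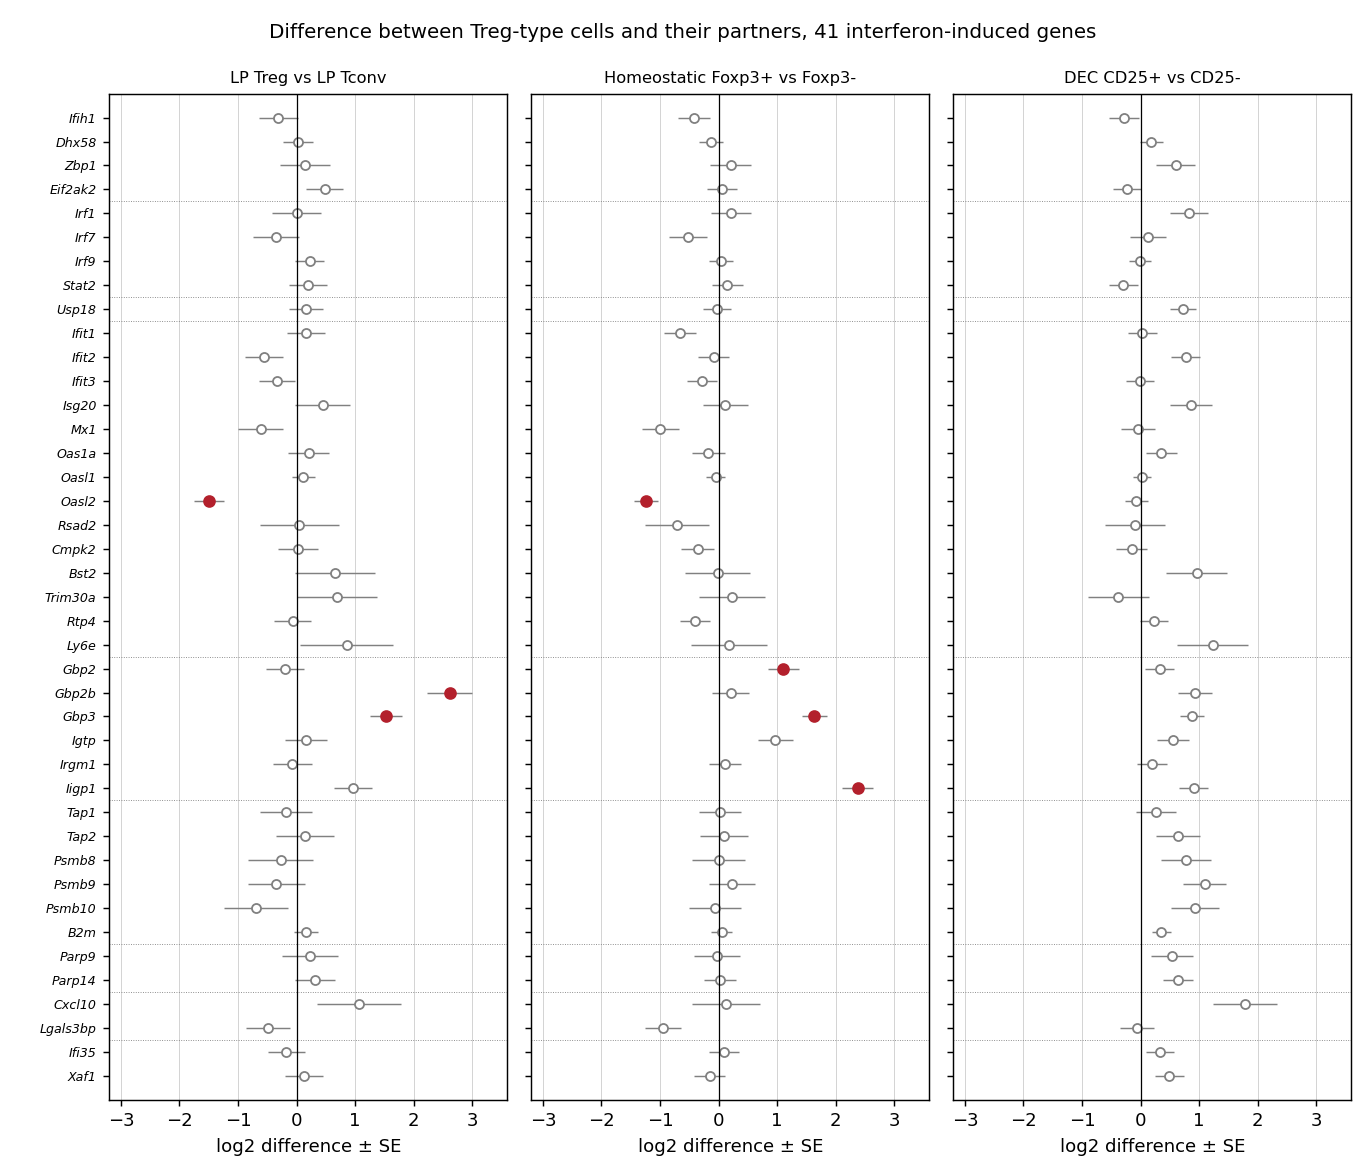
Log2 difference ± SE of each of the 41 genes between LP Treg and LP Tconv, homeostatic Foxp3+ and Foxp3-, and DEC CD25+ and CD25- cells, with genes in rows by role. Filled red points passed the limma threshold: Gbp2b, Gbp3 and Oasl2 in the gut and Iigp1, Gbp3, Gbp2 and Oasl2 in the homeostatic groups, with none in the DEC groups.

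These 3 comparisons share no arrays, and their differences were tested directly. Between the gut and the homeostatic comparison Gbp2b differed by 2.41 ± 0.50 (SE, limma adjusted p = 0.0239), the only one of the 41 genes to pass, where 0.775% of all genes did. It was called in the gut and averaged 7.14 and 6.93 in homeostatic Foxp3+ and Foxp3- cells. Leaving out any one of LP Treg replicate 1, LP Tconv replicate 2, homeostatic Foxp3+ replicates 1 and 3 or Foxp3- replicates 2 and 3 ended this call, at 2.04 to 2.43. Between the gut and the DEC comparison Oasl2 differed by -1.42 ± 0.32 (SE, limma adjusted p = 0.0381), again 1 of 41 genes, against 1.01% of all genes, and this call was lost at -1.37 (adjusted p = 0.0774) without the dim DEC CD25- replicates 3 and 4. It was lost too, at -1.16 to -1.50, without any one of LP Treg replicate 1, LP Tconv replicate 2, the 3 DEC CD25+ replicates or DEC CD25- replicates 2 and 3. Oasl2 had means of 4.41 and 4.48 in the DEC groups, both below the filter. Between the homeostatic and the DEC comparison 0 of 41 genes passed by limma, against 0.336% of all genes, with 8 at an unadjusted p under 0.05. Ifng differed between the gut comparison and the homeostatic one by -2.53 ± 0.53 (SE, limma adjusted p = 0.0273) and between gut and DEC by -2.27 ± 0.52 (SE, limma adjusted p = 0.0404).

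Among the lymph node subsets, 1 gene marked the CD103+Klrg1- cells. Gbp2b read 10.31 and 10.85 there, against 7.87 and 8.10 in CD103-Klrg1- and 7.83 and 7.69 in CD103+Klrg1+ cells. The CD103+Klrg1- arrays overlap the LP Treg arrays (9.94 and 10.68), and both other subsets lie near LP Tconv (7.50 and 7.88). Gbp2b was 2.59 ± 0.39 higher (SE; 6.03-fold, limma adjusted p = 0.00584) in CD103+Klrg1- than in CD103-Klrg1- cells, as 1 of 41 genes called against 0.0959% of all genes. It was -2.82 ± 0.39 (SE; 7.05-fold, limma adjusted p = 0.000773) in CD103+Klrg1+ against CD103+Klrg1- cells, again 1 of 41 against 0.647%. The second call held without each of the 4 arrays. The first was lost, at 2.32 to 2.71, without either CD103-Klrg1- array or without CD103+Klrg1- replicate 2, and 0 genes were then called. In the first comparison Gbp3 (0.77), Iigp1 (0.71) and Ifit1 (-0.71) came next by p, and in the second Usp18 (-0.79), Gbp2 (-0.78) and Oasl2 (-0.39), none with an adjusted p under 0.6. No signalling or further gene passed in either comparison by limma, and 1 gene of each list had an unadjusted p under 0.05 in each.

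Usp18, the protease that removes Isg15 from proteins and dampens the type I receptor, followed another order in the lymph node. It read 10.48 and 10.47 in CD103-Klrg1-, 10.06 and 9.89 in CD103+Klrg1- and 9.15 and 9.22 in CD103+Klrg1+ cells. The subsets do not overlap, and the CD103+Klrg1+ cells were lower than the CD103-Klrg1- cells by -1.29 ± 0.29 (SE; 2.45-fold, limma adjusted p = 0.0204). This was 1 of 41 genes, where 2.1% of all genes passed, so the share of the 41 is near the background. The Usp18 call was lost without any one of the 4 arrays, at -1.25 to -1.33. Oasl2 ran the same way, at 7.29 and 7.20, 6.65 and 6.95, then 6.17 and 6.65, with -0.83 ± 0.26 (SE) and an adjusted p of 0.146 for the same pair. Gbp3 (0.70, adjusted p = 0.392) and Oas1a, an oligoadenylate synthetase (0.60), came next. No signalling or further gene passed for this pair by limma, with 4 and 6 at an unadjusted p under 0.05.

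**Figure D4:**
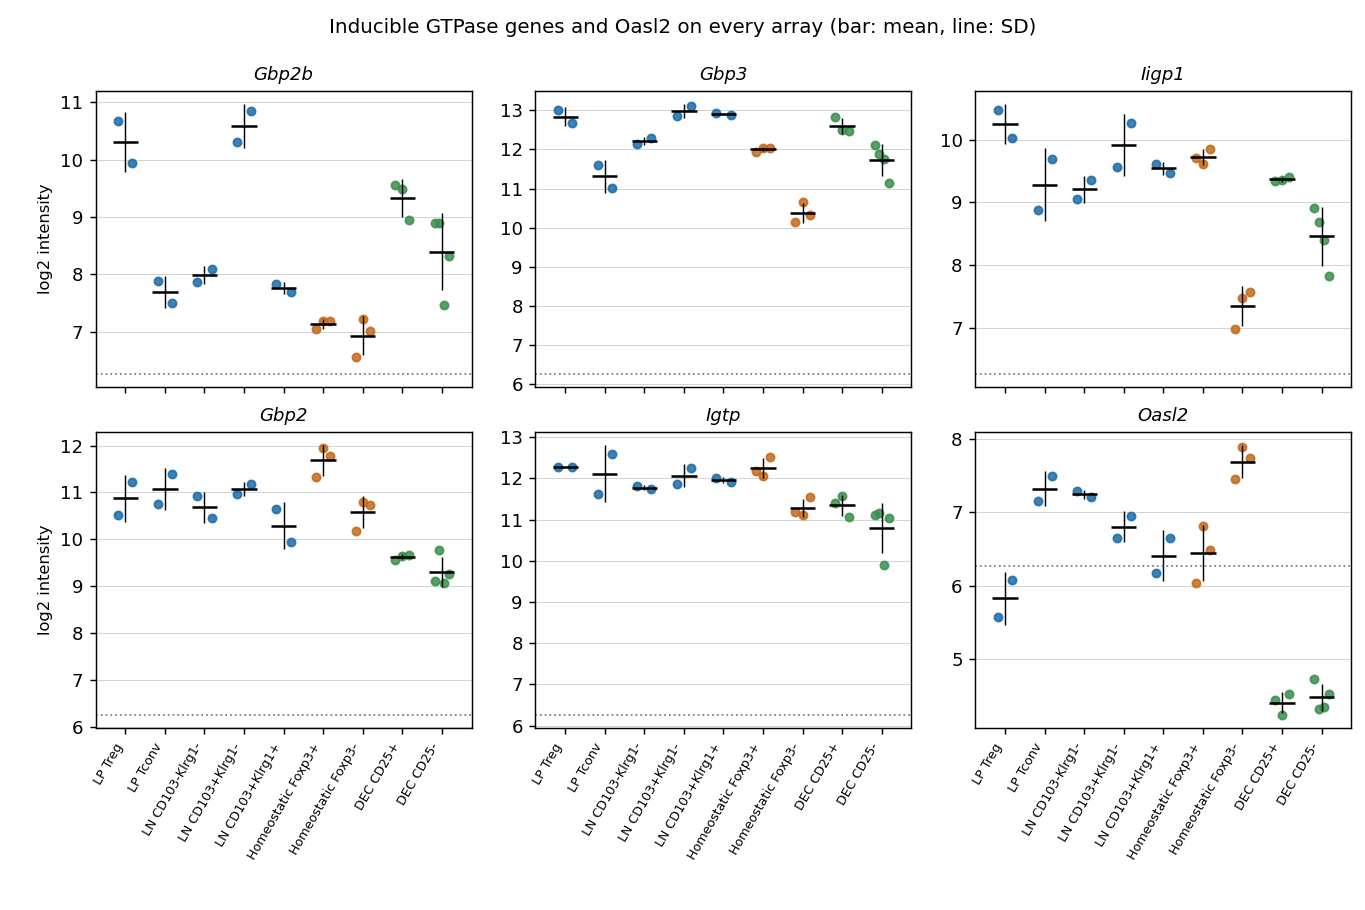
Log2 intensity of 5 interferon-inducible GTPase genes and Oasl2 on every array, with group mean (bar) and SD (line); blue marks C57BL/6, orange NOD and green Balb/c arrays, and the dotted line is the filter at 6.27. Gbp2b stands at 9.94 to 10.85 in LP Treg and LN CD103+Klrg1- and at 7.50 to 8.10 in the other C57BL/6 groups, and Oasl2 is below the filter on all DEC arrays.

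Gut Treg cells were compared with the lymph node subsets of the same strain, which share the LP Treg arrays with each other and with the gut comparison above. Against CD103-Klrg1- cells 2 of 41 genes were higher and 3 lower, where 4.55% of all genes passed. Cxcl10, a chemokine that draws Cxcr3+ T cells, read 10.24 and 10.25 in LP Treg and 6.92 and 6.97 in CD103-Klrg1- cells, a difference of 3.29 ± 0.71 (SE; 9.81-fold, limma adjusted p = 0.00926). It was also high in LP Tconv cells, at 9.81 and 8.55. Myeloid and dendritic markers averaged 6.69 and 6.70 on the LP Treg arrays and 6.47 and 6.68 on the CD103-Klrg1- arrays. Markers of plasmacytoid dendritic cells, a list that holds Bst2 of the 41 genes, averaged 8.41 and 8.50 against 7.76 and 7.80. B cell markers averaged 6.29 and 6.38 against 7.36 and 7.32, with 3 of 6 tested called lower in LP Treg, and plasma cell markers 9.85 and 9.44 against 8.26 and 8.10, with 2 of 5 called higher. The part of these markers in the differences was not tested. Gbp2b was higher by 2.32 ± 0.39 (SE, limma adjusted p = 0.00122). Usp18 was lower by -1.69 ± 0.29 (SE, adjusted p = 0.00167), Oasl2 by -1.41 ± 0.26 (SE, adjusted p = 0.00232), at least 2.67-fold since its LP Treg mean is below the filter, and Ifit3, an antiviral scaffold protein, by -1.34 ± 0.31 (SE, adjusted p = 0.014). Gbp2b and Usp18 kept their calls without any one of the 4 arrays. The Cxcl10 call was lost without each in turn, at 3.27 to 3.32, that of Oasl2 without LP Treg replicate 1 (-1.16), and that of Ifit3 without LP Treg replicate 1 or either CD103-Klrg1- replicate (-1.11 to -1.42), so that 2, 3 and 3 genes then passed.

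Against CD103+Klrg1+ cells 1 gene was higher and 1 lower, against 2.05% of all genes. Gbp2b was higher by 2.55 ± 0.39 (SE, limma adjusted p = 0.000986) and kept the call without any one of the arrays. Ifit3 read 8.22 and 8.68 against 9.71 and 9.74, a difference of -1.28 ± 0.31 (SE, adjusted p = 0.0345), which missed the threshold without any one of the 4 arrays (-1.05 to -1.51). Cxcl10 (2.56 ± 0.71, SE, adjusted p = 0.0849) and Cmpk2, a mitochondrial nucleotide kinase next to Rsad2 in the genome (-1.11 ± 0.34, SE, adjusted p = 0.141), came next. Of the signalling genes, Ifngr1, a chain of the interferon-gamma receptor, was higher in LP Treg cells by 2.34 ± 0.35 (SE, limma adjusted p = 0.000538) against CD103-Klrg1- and by 1.86 ± 0.35 (SE, adjusted p = 0.00599) against CD103+Klrg1+ cells. It read 11.74 and 11.44 in LP Treg and 9.17 to 9.84 on the 6 lymph node arrays, which it does not overlap. Jak2, the kinase bound to that receptor, was higher by 1.52 ± 0.27 (SE, adjusted p = 0.00213) and 1.10 ± 0.27 (SE, adjusted p = 0.04). In all 3 signalling genes rose and 2 fell of 28 in the first comparison and 4 rose in the second. Of the 51 further genes 0 were higher and 4 lower in the first, among them Ms4a4c, a membrane protein of the Ms4a family, at -2.85 ± 0.37 (SE, adjusted p = 9.87e-05).

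The converted and the DEC CD25+ cells were each set against the lymph node CD103-Klrg1- Treg cells, which both comparisons share. Here strain and system change with the cells, and for the DEC cells so does sex as read by Xist. In homeostatic Foxp3+ cells 1 gene of 41 was higher and 4 were lower, where 13.4% of all genes passed, so the share of the 41 is near the background. Usp18 was lower by -1.34 ± 0.27 (SE, limma adjusted p = 0.00248), Ifit3 by -1.28 ± 0.28 (SE, adjusted p = 0.00512), Ifit1 by -0.98 ± 0.30 (SE, adjusted p = 0.0369) and Oasl2 by -0.80 ± 0.23 (SE, adjusted p = 0.0301), and Gbp2 was higher by 1.00 ± 0.30 (SE, adjusted p = 0.0321). Usp18 kept its call without each of the 5 arrays, while Ifit1 lost it without any one of them (-0.88 to -1.09). Oasl2 lost its call without homeostatic Foxp3+ replicate 1 or 3 or either CD103-Klrg1- replicate (-0.60 to -0.84). For Gbp2 the call was lost without homeostatic Foxp3+ replicate 2 or 3 or either CD103-Klrg1- replicate (0.77 to 1.24). That of Ifit3 was lost without CD103-Klrg1- replicate 1 (-1.20). The total was 3 genes without homeostatic Foxp3+ replicate 2 and 2 without replicate 3. Ifitm1, Ifitm2 and Ifitm3, membrane proteins that block viral entry, were among the further genes higher in the homeostatic cells. Ifitm1 was higher by 4.43 ± 0.29 (SE, limma adjusted p = 2.1e-08), Ifitm3 by 4.30 ± 0.44 (SE, adjusted p = 3.72e-06) and Ifitm2 by 5.39 ± 0.28 (SE, adjusted p = 1.29e-09), the last at least 42.1-fold, since its lymph node mean is below the filter. Of the 51 further genes 4 were higher and 8 lower in this comparison. Myeloid and dendritic markers were above 0 for 13 of 13 tested genes, with 5 called higher and a median of 1.06, 3 of 7 CD8 T and NK cell markers were called higher, and 3 of 6 B cell markers lower. Their part in the Ifitm and other differences was not tested.

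In DEC CD25+ cells the antiviral genes stood far lower. Of the 41 genes 13 were lower and 2 higher than in LN CD103-Klrg1- cells, where 14.6% of all genes passed, and 9 of the 14 antiviral effectors were among the lower ones, with a median of -1.44. Usp18 read 6.67, 7.52 and 7.22 in DEC CD25+ cells, a difference of -3.34 ± 0.27 (SE; 10.1-fold, limma adjusted p = 2.42e-07) from the 10.48 and 10.47 of the lymph node arrays. Ifit3 read 7.06, 6.99 and 6.48 against 9.87 and 9.71, a difference of -2.94 ± 0.28 (SE; 7.69-fold, adjusted p = 1.82e-06). Oasl2 read 4.44, 4.25 and 4.53 against 7.29 and 7.20 and was at least 7.16-fold lower (-2.84 ± 0.23, SE, adjusted p = 3.39e-07). Ly6e read 6.19, 8.49 and 7.89 against 11.78 and 11.34, a difference of -4.04 ± 0.72 (SE, adjusted p = 0.000931), with a wide spread among the DEC arrays.

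Ifit1, which binds foreign RNA caps, was lower by -2.26 ± 0.30 (SE, adjusted p = 6.37e-05), Trim30a, a ubiquitin ligase family member, by -3.17 ± 0.62 (SE, adjusted p = 0.0019) and Cmpk2 by -1.84 ± 0.31 (SE, adjusted p = 0.000591). Rtp4 (-1.44), Ifit2 (-1.34), Irf9, a part of the type I transcription complex (-0.95), and Mx1 (-1.45, at least 2.74-fold) were lower with adjusted p-values of 0.00224 to 0.00895. Gbp2b was higher by 1.34 ± 0.35 (SE, adjusted p = 0.0143). The other 3 called genes were outside the naming rule and are named after their values were seen: Gbp2 (-1.05), Parp9 (-1.40) and Cxcl10 (2.24). Of the myeloid and dendritic markers 3 of 13 were called higher and of the B cell markers 3 of 6 lower in DEC CD25+ cells, and their part was not tested. Without CD103-Klrg1- replicate 1 or 2 the total was 9 genes, all lower. Gbp2b and Irf9 then missed the threshold in both cases, Mx1 without replicate 1 and Ifit2 without replicate 2. Gbp2, Parp9 and Cxcl10, outside the naming rule, missed it in both cases too.

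The further genes showed the same direction, with 17 of 51 lower and 1 higher. Parp11, an ADP-ribosyltransferase, was lower by -3.16 ± 0.22 (SE, limma adjusted p = 4.77e-08), Ifi209, a DNA-binding HIN family protein, by -3.94 ± 0.35 (SE, adjusted p = 9.1e-07) and Trim34a, a TRIM family protein, by at least 24.2-fold (-4.60 ± 0.37, SE, adjusted p = 2.42e-07). The signalling genes did not follow: 6 of 28 were higher and 4 lower. Ifng was higher by 2.83 ± 0.38 (SE, adjusted p = 6.82e-05), Ifngr1 by 1.35 ± 0.32 (SE, adjusted p = 0.00785) and Ifnar2, a chain of the type I receptor, by 1.34 ± 0.28 (SE, adjusted p = 0.00326), while Socs1, an inhibitor of both pathways, was lower by -0.72 ± 0.20 (SE, adjusted p = 0.021). Irf2bp2, a corepressor, was the signalling gene of smallest p, at 3.86 ± 0.30 (SE, adjusted p = 2.23e-07).

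**Figure D5:**
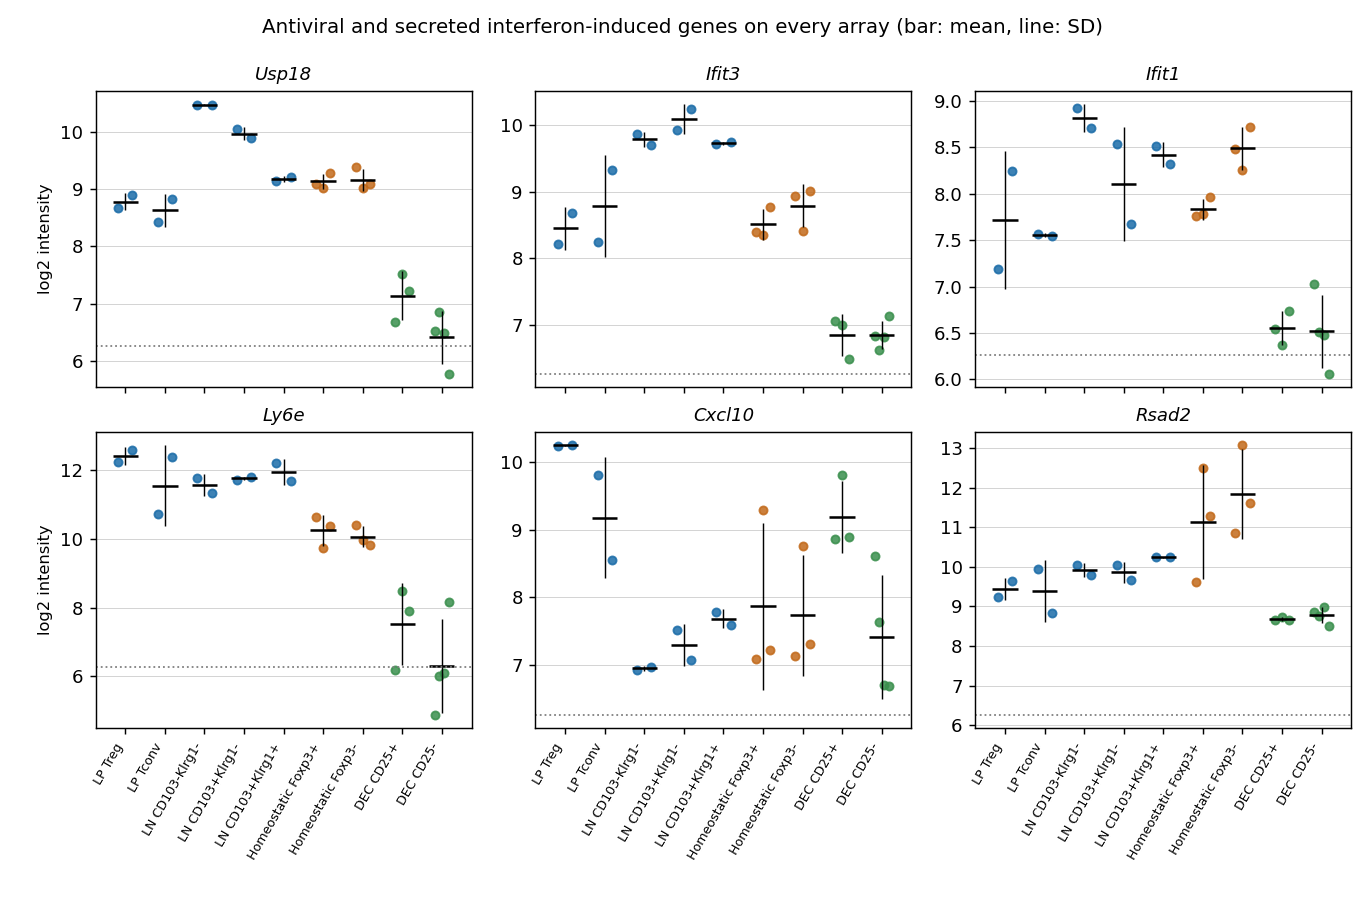
Log2 intensity of Usp18, Ifit3, Ifit1, Ly6e, Cxcl10 and Rsad2 on every array, with group mean (bar) and SD (line); blue marks C57BL/6, orange NOD and green Balb/c arrays, and the dotted line is the filter at 6.27. The DEC arrays are the lowest for Usp18, Ifit3, Ifit1 and Ly6e, Cxcl10 is highest in LP Treg, and Rsad2 reaches 12.51 and 13.07 on replicate 2 of the homeostatic groups.

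Homeostatic Foxp3+ and DEC CD25+ cells, both arising from transferred cells, differed in 13 of the 41 genes, 12 higher and 1 lower on the homeostatic side, in a comparison where 24.1% of all genes passed. Oasl2 was at least 4.12-fold higher in the homeostatic cells (2.04 ± 0.21, SE, limma adjusted p = 2.58e-06), Usp18 higher by 2.00 ± 0.24 (SE, adjusted p = 1.08e-05), Gbp2 by 2.05 ± 0.26 (SE, adjusted p = 2.55e-05) and Ifit3 by 1.66 ± 0.25 (SE, adjusted p = 0.000119). Ly6e (2.72), Cmpk2 (1.33), Ifit1 (1.28), Parp9 (1.22), Rtp4 (0.91) and Igtp (0.91) were higher too, with adjusted p-values up to 0.0331, and Irgm1, outside the naming rule, by 0.82. Gbp2b was the lower gene, at 7.04, 7.20 and 7.18 against 9.55, 9.49 and 8.94, a difference of -2.19 ± 0.32 (SE, adjusted p = 7.46e-05). Of the 12 genes within the naming rule, Parp9 (0.97 to 1.31), Igtp (0.77 to 0.94) and Rtp4 (0.78 and 0.86) missed the threshold in some fits without 1 of the 6 arrays, each of them without homeostatic replicate 3. Parp9 and Igtp also missed it without homeostatic replicate 1 or DEC CD25+ replicate 3, Parp9 and Rtp4 without DEC CD25+ replicate 2, and Igtp without DEC CD25+ replicate 1. Of the signalling genes 4 were higher and 5 lower on the homeostatic side, with Irf2bp2 at -2.54 ± 0.27 (SE, limma adjusted p = 3.74e-06) and Sting1, an adaptor of DNA sensing, at 1.32 ± 0.30 (SE, limma adjusted p = 0.00438). Of the further genes 14 were higher and 1 lower, led by Ifitm1 at 4.45 ± 0.26 (SE, limma adjusted p = 3.99e-09). CD8 T and NK cell markers were called higher for 5 of 7 genes, and their part was not tested.

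Rsad2, also called viperin, an enzyme that makes a chain-ending nucleotide against viruses, varied widely between arrays of the homeostatic groups. It read 9.62, 12.51 and 11.28 in homeostatic Foxp3+ cells and 10.85, 13.07 and 11.61 in homeostatic Foxp3- cells, and 8.50 to 10.24 on the other 17 arrays. The Foxp3+ cells were higher than DEC CD25+ cells, at 8.64, 8.73 and 8.66, by 2.46 ± 0.55 (SE, limma adjusted p = 0.00348), and by 1.77 (adjusted p = 0.0233) without homeostatic replicate 2. Replicate 2 is also the highest for Cxcl10 in both homeostatic groups, at 9.29 and 8.76 against 7.08 to 7.31 on their other arrays. Myeloid and dendritic markers averaged 8.45 and 8.88 on those replicate 2 arrays and 7.44 to 7.98 on the other 4. CD8 T and NK cell markers were 8.47 against 7.35 and 7.94 in Foxp3+ and 8.77 against 8.58 and 8.59 in Foxp3- cells. Erythroid markers averaged 7.75 and 8.07 on the replicate 2 arrays and 6.05 to 7.56 on the others. T cell markers were the lowest of each group there, at 11.03 and 11.25. The part of these lists in the Rsad2 and Cxcl10 levels was not tested.

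Whether the low DEC level was carried by every array was read without a fit. For 10 of the 41 genes (24.4%) all 7 Balb/c arrays lay below all 16 others, against 4.71% of all tested genes: Usp18, Ifit1, Ifit3, Mx1, Oasl2, Rtp4, Ly6e, Gbp2, Tap2 and Parp9. The gap was widest for Ly6e, where the Balb/c arrays ran from 4.89 to 8.49 (median 6.19) and the others from 9.74 to 12.59 (median 11.51). For Ifit3 the ranges were 6.48 to 7.13 (median 6.83) against 8.22 to 10.25 (median 8.98). Usp18 ran from 5.77 to 7.52 (median 6.67) against 8.43 to 10.48 (median 9.12) and Oasl2 from 4.25 to 4.73 (median 4.44) against 5.58 to 7.88 (median 6.88). For Mx1 the highest Balb/c array read 5.35 and the lowest other array 5.49, both below the filter, with a median of 6.63 on the others. The edge between the Oasl2 ranges, 4.73 against 5.58, lies below the filter too. For Mx1 and Oasl2 the lack of overlap is thus decided among values below the filter. Without the dim DEC CD25- replicates 3 and 4, Trim30a joined and the count was 11 (26.8%, against 5.20% of all tested genes). For 0 of the 41 genes did all Balb/c arrays lie above the rest (0.831% of all genes). All NOD arrays lay above the rest for 0 genes (3.64%) and below for Gbp2b alone (1.45%), at 6.56 to 7.22 against 7.47 to 10.85. All 10 C57BL/6 arrays lay above the rest for Ly6e and Parp14, an ADP-ribosyltransferase (2 genes, against 2.3%), and below for 0 (0.336%). Probes that bind less well to one strain's transcript and less transcript cannot be told apart on a single probe set. Second probe sets of Gbp2 (-0.93), Ly6e (-2.69) and Trim30a (-2.23) gave the same direction between DEC CD25+ and LN CD103-Klrg1- cells as those used.

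Probe sets of 1 gene did not always agree. For Xaf1, an apoptosis-related gene induced by interferon, the probe set used differed by 0.19 between DEC CD25+ and LN CD103-Klrg1- cells and by 0.52 between homeostatic Foxp3+ and the same lymph node cells. Its dimmer probe set gave -3.22 and -2.54. For Zbp1, a sensor of left-handed nucleic acid, the values for the DEC comparison were 0.24 and -0.95, and for Iigp1 0.16 and -0.67. Between LP Treg and LP Tconv cells both probe sets of Iigp1 gave 0.97 and 0.94. For Cmpk2, called lower in DEC CD25+ than in LN CD103-Klrg1- cells, the probe set used gave -1.84 and the other -0.04. Group means of that other probe set, 5.16 to 5.48, all lie below the filter.

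The antigen-processing genes and the sensors had no called member in any of the 11 comparisons between groups. The 6 antigen-processing genes, which include the immunoproteasome subunits Psmb8 and Psmb9 and the peptide transporters Tap1 and Tap2, had the lowest mean in DEC CD25- cells, at 10.06 ± 0.47 (SD, n = 4), and 10.69 to 11.20 elsewhere. Their median difference was 0.71 between DEC CD25+ and CD25- cells, with 3 of 6 at an unadjusted limma p under 0.05. The median over all tested genes was 0.16 in this pair, and DEC CD25- replicates 3 and 4 were dim. On replicate 3, the array with the high Gapdh ratio, Tap2 read 6.69 against 8.68 to 8.91 on the other CD25- arrays. The part of these arrays in the difference was not tested. Psmb9 spread widely within groups, at 10.39 and 11.83 on the LP Tconv arrays and at 9.99, 11.32 and 10.76 on the DEC CD25+ arrays. Of the 4 sensors, Ifih1, which detects long double-stranded RNA, had group means from 9.67 to 10.69. Irf1, the transcription factor induced by interferon-gamma, had its highest group means in DEC CD25+ (12.18), LP Treg (12.10) and LP Tconv (12.10) cells and the lowest in homeostatic Foxp3- cells (11.18).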

How the data were processed

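RNA of sorted CD4+ T cells was measured on 23 arrays (RNA amplified in 2 rounds, per the labels' protocols). The values are intensity, which the authors deposited after RMA, per the submitters' processing notes, with the version not given in the sources used here. They lie on a linear scale, and log2 was taken without a pseudocount. Annotation gave 1 gene symbol to 34945 of 45101 probe sets, several to 932, which were not used, and none to the rest, controls included. A gene was tested when at least 1 group mean exceeded the median of all values (6.27 in log2, 77.0 intensity units), which kept 12516 of 18193 genes.

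One model with 9 group means was fitted with limma 3.58.1 in R 4.3.3 (lmFit, eBayes; 14 residual and 3.48 prior degrees of freedom), with two-sided tests and Benjamini-Hochberg adjustment over all tested genes, and tested on simulated data. Tables and figures used Python 3.11.15, pandas 2.3.3, numpy 2.4.6 and matplotlib 3.10.9. Where the lower group mean is below the filter, a fold is a bound, as is its log2 difference. Each array pools mice, so errors are between pools, and the number of arrays limits the precision.

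The members and the gene lists were chosen with earlier results of these data known. Counts at an unadjusted p under 0.05 stand without the share of all genes at that threshold, so they are not read as results about the lists. In each comparison called members were named, up to 12 by smallest p, and the 4 of smallest p where fewer passed; up to 5 in a difference of differences; up to 4 called genes of each other list, beside Ifng and the receptor genes. Same-number arrays deviated together in the homeostatic (correlations 0.66, 0.58 and 0.49) and DEC groups (0.39, 0.51 and 0.38), where 3 pairs each could be compared, so the block is given there, although no label settles the pairing. Groups with 2 pairs share only a number by this rule, and their block values are in the closing section. Alternatives were quantile and cyclic loess normalization, no filter, the mean of probe sets, the arrays of 2 groups alone, the block, each array left out and, chosen after seeing the data, both dim DEC CD25- arrays left out.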

Additional observations from a re-analysis of the deposited data

Results flagged for a closer look

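Within the 4 DEC CD25- arrays, 5 of the 41 genes had 1 array far from the other 3 by a test of the gap against the whole range, and chance flags about 1 in 20 such groups. On replicate 3 Eif2ak2, a kinase that stops translation on double-stranded RNA, read 7.14 against 5.92 to 5.98 on the others. The same array read 10.09 for Irf1 (others 11.60 to 11.86), 9.89 for Igtp (11.03 to 11.17) and 6.69 for Tap2 (8.68 to 8.91). Its Gapdh 3′ to 5′ difference was 6.59 and its median intensity 68.5, and their part in these levels was not tested. On replicate 2 Isg20, an exonuclease, read 8.92 against 8.38 to 8.45.

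The Foxp3+ minus Foxp3- difference of Gbp2b was 2.41 larger on the log2 scale in the gut than in the homeostatic comparison, where strain, host, receptor and system change too, and leaving out any one of 6 single arrays ended this call (2.04 to 2.43). For Oasl2 the gut and the DEC comparison differed by -1.42, with both DEC means below the filter, and leaving out any one of 7 single arrays ended this call (-1.16 to -1.50).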

How the results depend on the processing

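Of 736 alternatives to 64 named gene results, 645 kept direction and side of the threshold, 79 lost the call, 12 gained one and 0 reversed. The named results include genes that were not called, for which staying uncalled counts as kept. Called genes outside the naming rule are not in this tally, so 645 does not measure how stable the calls are. Where counts of the 41 genes moved by over 1.5 times the cause was not tested, other than fewer arrays. In fits of the arrays of 2 groups alone there were 0 calls for LP Treg against LP Tconv, 8 for homeostatic Foxp3+ against Foxp3-, 4 for LP Treg against LN CD103+Klrg1+, 20 for homeostatic Foxp3+ against LN CD103-Klrg1- and 20 against DEC CD25+. The replicate block gave 7 in the homeostatic pair, 2 in the DEC pair and 3 for LN CD103+Klrg1+ against CD103-Klrg1- (Usp18, Oasl2 with adjusted p = 0.0242 and Gbp3 with adjusted p = 0.0264 by limma), and moved no other count of calls by over 1.5 times; same-number residuals correlated at 0.37 to 0.72 in the LN pairs and -0.07 in the gut. Without both dim DEC CD25- arrays there were 8 calls for LP Treg against LN CD103-Klrg1-, 4 against CD103+Klrg1+, 11 for homeostatic Foxp3+ against LN CD103-Klrg1- and 1 for the homeostatic minus DEC difference. That difference also had 1 under quantile, cyclic loess and the mean of probe sets. Quantile left 1 call for LP Treg against CD103+Klrg1+ and gave 1 gene with all NOD arrays above; cyclic loess gave 2 for gut minus DEC and 0 with all NOD arrays below; the mean of probe sets gave 11 for homeostatic Foxp3+ against LN CD103-Klrg1-. Without 1 array, counts ran from 1 to 4 for LP Treg against Tconv, 0 to 3 for the DEC pair, 0 to 1 for CD103+Klrg1- and 0 to 0 for CD103+Klrg1+ against CD103-Klrg1-, 2 to 5 and 1 to 1 for LP Treg against CD103-Klrg1- and CD103+Klrg1+, 1 to 4 and 9 to 15 for homeostatic Foxp3+ and DEC CD25+ against CD103-Klrg1-, 0 to 1 for gut minus homeostatic, 0 to 2 for gut minus DEC and 0 to 1 for homeostatic minus DEC.

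The mean level moved by more than its SD with the mean of probe sets, to 8.09 (DEC CD25-), 8.51 (DEC CD25+), 9.02 (homeostatic Foxp3-), 9.05 (homeostatic Foxp3+), 9.22 (CD103-Klrg1-), 9.33 (CD103+Klrg1-), 9.21 (CD103+Klrg1+) and 9.42 (LP Treg), and for CD103+Klrg1- and LP Treg also under quantile (9.50 and 9.60) and cyclic loess (9.47 and 9.57). The DEC groups were lowest under each. Calls over all genes also moved by over 1.5 times under some alternatives, so the percentages of all genes called are of the fit of 23 arrays: LP Treg against Tconv 338 (17 to 615), homeostatic pair 220 (133 to 741), DEC pair 62 (5 to 330), CD103+Klrg1- against CD103-Klrg1- 12 (0 to 28), CD103+Klrg1+ against it 263 (124 to 453) and against CD103+Klrg1- 81 (25 to 136), LP Treg against CD103-Klrg1- 570 (194 to 1082) and against CD103+Klrg1+ 257 (95 to 448), homeostatic Foxp3+ against CD103-Klrg1- 1678 (619 to 3845), DEC CD25+ against it 1832 (809 to 3050). The differences of differences gave 97 (55 to 179) for gut minus homeostatic, 126 (45 to 396) for gut minus DEC and 42 (21 to 77) for homeostatic minus DEC.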
